A study of Mus musculus with 12 samples.

Results

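Footprint levels of 10 genes that make and remodel phosphatidylcholine (PC) and phosphatidylethanolamine (PE) were followed in mouse liver by Ribo-seq, a method that reads the stretches of RNA covered by translating ribosomes. The genes were looked up by symbol among the 25033 entries of the Ribo-seq table, and all 10 were found. The 6 Ribo-seq libraries came from the livers of male C57BL/6 mice of 16 weeks, fed a high-fat diet (HFD, n = 3) or the high-fat diet with lycopene (LYC, n = 3) for 8 weeks. Both groups therefore share the high-fat diet, and no library of mice on standard feed was analysed here. That the values are footprints rests on the labels, since for the 10 genes the table labelled RNA-seq holds nearly the same reads. Each library is taken as 1 mouse from its title and the study's wording, although the labels also mention pooling before library construction, and the treatment label of LYC names only the high-fat diet. If libraries of a group shared material, the p-values would measure the spread between libraries and not between mice.

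PC and PE are the main phospholipids of liver membranes and of the surface of lipoproteins and lipid droplets. Both are built by the Kennedy pathway, in which choline or ethanolamine is phosphorylated by a kinase, activated with CTP by a CTP transferase and joined to diacylglycerol by a phosphotransferase. Hepatocytes also make PC by methylating PE, and acyltransferases then exchange the fatty acids of finished phospholipids. Etnk2 (ethanolamine kinase), Chka and Chkb (choline kinases), Pcyt2 and Pcyt1a (CTP transferases), Selenoi and Cept1 (phosphotransferases), Pemt (the PE methyltransferase), Lpcat3 and Mboat7 (acyltransferases) are the 10 genes. Mboat7 is best known for acylating lysophosphatidylinositol, so it stands beside PC and PE synthesis rather than in it.

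Depth differed between the groups and sets what can be seen of low genes. The reads behind the RPKM values (reads scaled to gene length and library size) were recovered from their steps, and the steps correspond to 834410 to 4405541 reads per library in HFD and 311050 to 412116 in LYC. All 10 genes passed the filter on low reads that 5694 genes passed, but in LYC they held between 6 reads in all (Chkb) and 252 (Etnk2), against 166 to 1256 in HFD. The filter asks for enough reads in 3 libraries. Chkb, Mboat7, Chka and Selenoi met it through their HFD libraries and would not have met it by LYC alone. A gene kept in this way is more likely to be seen lower in LYC than higher. In bulk liver, fewer cells of a type and less RNA per cell cannot be told apart. Alb, the hepatocyte albumin gene, stood at 27100 ± 2190 RPKM on HFD and 17000 ± 4780 on LYC (SD over 3 libraries). The summed level of 8 hepatocyte markers was 39600 to 43700 in HFD and 28700 to 37400 in LYC. Alb made up much of this sum, which therefore says little of the other markers. On scaled values Alb and this sum overlapped between the groups (34600 to 38600 and 28500 to 40600 for the sum), with Cps1 and Tat called higher in LYC. Of the other liver cells, 7 Kupffer cell and macrophage markers summed to 89.1 to 105 RPKM in HFD and 71.6 to 146 in LYC. The 6 endothelial markers summed to 66.8 to 96.2 and 32.7 to 112, and 6 stellate cell markers to 83.0 to 159 and 80.8 to 122. Of these 3 sets 4, 5 and 4 markers were tested, and none of those was called. The 5 cholangiocyte markers summed to 15.4 to 25.0 RPKM in HFD and 2.89 to 9.25 in LYC, where Krt19, Krt7 and Epcam were at 0, and the 5 lymphocyte markers to 3.57 to 4.31 and 0.612 to 2.77. The 4 erythroid markers summed to 322 to 652 RPKM in HFD and 504 to 648 in LYC with Alas2 called higher, the 3 muscle markers to 34.3 to 58.7 and 21.0 to 45.0, and the 3 adipocyte markers reached at most 0.553. The part of these shifts in the results below was not tested.

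Of the 10 genes, 4 fell in LYC and none was called higher. Their log2 fold changes were -1.93 for Mboat7, -1.82 for Selenoi, -1.44 for Chkb and -1.19 for Lpcat3. Mboat7, Selenoi and Chkb had passed the filter through their HFD libraries, so the filter itself favoured a fall in them. Among all 5694 genes tested 6.52% were called lower and 6.97% higher. A gene was called when its log2 fold change exceeded 1 in size and limma's two-sided moderated test on log2(RPKM / TMM factor + 1) gave p below 0.01 before adjustment, where TMM is edgeR's scaling between libraries and scaled RPKM below means RPKM divided by it. The 1 RPKM added pulls the estimates of weakly covered genes toward 0. At an unadjusted p below 0.05 in limma, 5 of the 10 genes were lower and 1, Etnk2, was higher, against 15.3% and 14.9% of all genes tested. On the recovered reads edgeR's quasi-likelihood test and DESeq2 each called Etnk2 higher, as they did 8.64% and 9.04% of genes tested. Over the 10 genes the median was -0.72 (log2), and over all genes tested -0.10. Chkb and Mboat7 had an adjusted p below 0.05 (Benjamini-Hochberg over all genes tested), as did 5.30% of genes tested in the lower direction.

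**Figure D1:**
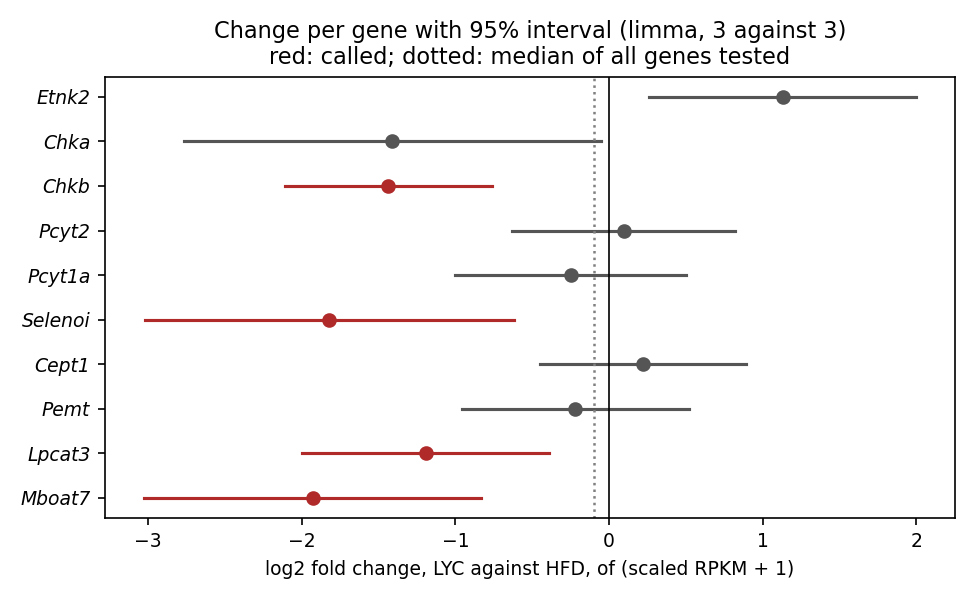
Log2 fold change of each gene, LYC against HFD, on the scale of scaled RPKM + 1 (x axis). Points are limma estimates and lines their 95% intervals (3 libraries a group). Genes called are red, the dotted line is the median of all genes tested (-0.10), and the intervals of Mboat7, Selenoi, Chkb, Lpcat3 and Chka lie wholly below 0 and that of Etnk2 wholly above it.

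Sequence upstream of Lpcat3, Selenoi and Etnk2 is shown because the first pair fell and Etnk2 had the highest estimate. Promoter sequences from RefSeq (GRCm38.p6) matched 9 of the 10 genes, with 14 windows of 250 bases before an annotated RefSeq transcript start. Each line gives the bases of such a window that also lie before the start of the gene in GENCODE, 5′ to 3′ on the gene's strand, with GC boxes (GGGCGG) and CCAAT boxes (CCAAT) found on either strand in capitals.
Lpcat3: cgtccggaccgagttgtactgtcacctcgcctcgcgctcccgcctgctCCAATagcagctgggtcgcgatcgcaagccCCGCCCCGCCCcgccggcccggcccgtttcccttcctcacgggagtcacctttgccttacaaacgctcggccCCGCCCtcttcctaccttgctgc
Selenoi: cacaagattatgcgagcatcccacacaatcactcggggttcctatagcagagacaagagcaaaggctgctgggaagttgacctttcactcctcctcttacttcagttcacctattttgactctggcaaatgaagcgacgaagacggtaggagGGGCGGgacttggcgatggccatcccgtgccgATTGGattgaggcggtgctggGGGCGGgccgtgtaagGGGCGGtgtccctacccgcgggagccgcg
Etnk2: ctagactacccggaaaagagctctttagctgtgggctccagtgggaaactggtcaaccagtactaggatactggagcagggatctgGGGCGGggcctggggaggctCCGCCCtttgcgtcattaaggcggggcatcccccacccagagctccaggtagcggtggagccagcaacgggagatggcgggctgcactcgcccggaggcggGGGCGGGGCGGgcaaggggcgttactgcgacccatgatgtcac
These stretches lie at chr6:124662854-124663026 for Lpcat3, chr5:30232331-30232580 for Selenoi and chr1:133363322-133363571 for Etnk2, all on the plus strand. Lpcat3 held 3 GC boxes and 1 CCAAT box in its 173 bases, Selenoi 3 and 1, and Etnk2 4 GC boxes. GC boxes overlapped each other by a base in Lpcat3 and Etnk2, and no GC box overlapped a CCAAT box. The window of Mboat7 lies within the gene as GENCODE draws it and that of Chkb within an exon of C730034F03Rik, so neither is printed. A GC box was in 10 of the 14 windows (8 genes) and in 32.7% of all 32851 promoters of this length. A CCAAT box was in 5 of the 14 windows (5 genes) and in 33.8% of all promoters. The E-box CACGTG, the cAMP response element TGACGTCA and the exact DR4 repeat (the ideal letters of a liver X receptor element) were in none of the 14 windows and in 6.02%, 1.55% and 0.0152% of all promoters. The sterol response element letters TCACNCCAC were in 2 overlapping windows of Pcyt1a and in 1.05% of all promoters.

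The kinases open both arms of the Kennedy pathway, and here the estimate was positive for Etnk2 and negative for Chka, Chkb and Etnk1, the ethanolamine kinase outside the 10 genes (-0.87). Etnk2, an ethanolamine kinase abundant in liver (chr1:133363572-133380336, GRCm38), gave 39.9, 67.7 and 50.5 RPKM in HFD libraries 1 to 3. Its LYC libraries 1 to 3 gave 83.4, 178 and 54.3 RPKM, and all values below keep this order. Every LYC library lay above every HFD library on the scaled values, as in 18.7% of all genes tested, whereas in the RPKM as deposited LYC3 lay below HFD2. Mean RPKM was 52.7 ± 14.0 for HFD and 105 ± 64.5 for LYC (SD over 3 libraries). The estimate of 1.13 (log2, standard error 0.38, 95% interval 0.26 to 2.00, limma adjusted p = 0.0900) missed the limit on p. Without LYC3 the estimate was 1.49 and called (limma adjusted p = 0.0183). It fell short of the fold limit without LYC2 (0.75), without HFD1 (0.98) and without the TMM factor (0.84).

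Chkb, choline kinase beta (chr15:89426360-89429908), had the most even RPKM within LYC of the genes that fell, but from very few reads. HFD gave 11.3, 11.7 and 12.7 RPKM, LYC gave 2.84, 3.60 and 2.72, and the groups lay well apart. The HFD libraries held 55, 92 and 19 reads of it and the LYC libraries 2 reads each. With equal reads the LYC values differ by library size alone, so how even Chkb was within LYC cannot be judged. The log2 fold change was -1.44 (standard error 0.30, 95% interval -2.11 to -0.76, adjusted p = 0.0188, limma). Each of the 6 fits that left out a library called Chkb lower, and all of them rest on these 2 reads per LYC library. On the recovered reads it missed the call, at -1.65 in edgeR's quasi-likelihood test (adjusted p = 0.0566) and -1.67 in DESeq2 (adjusted p = 0.0794), and with a pseudocount of 5 it fell short of the fold limit (-0.92). Gm44502, a protein-coding gene on the same strand, shares 1552 of the 3061 exonic bases of Chkb in GENCODE, so some of these reads cannot be assigned to Chkb alone.

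Chka, choline kinase alpha (chr19:3851773-3894369), was uneven within LYC. HFD gave 14.7, 13.7 and 17.4 RPKM, and LYC gave 0.943, 4.79 and 11.7 from 1, 4 and 13 reads. LYC3 lay close to the HFD libraries, and on scaled values it overlapped them. The log2 fold change was -1.41 (standard error 0.60, 95% interval -2.77 to -0.05, adjusted p = 0.155, limma), which missed the call. In edgeR's quasi-likelihood test and DESeq2 it was -1.05 and -1.09. In limma it was -2.09 and called without LYC3 (adjusted p = 0.0233, limma) and -0.73 without LYC1.

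The CTP transferases, whose step limits the rate of both arms, showed no call. Pcyt2, which activates phosphoethanolamine (chr11:120610087-120617936), gave 68.3, 90.1 and 84.1 RPKM on HFD and 67.2, 114 and 45.4 on LYC, so that LYC reached both above and below HFD. Its log2 fold change was 0.10 (95% interval -0.63 to 0.82). Pcyt1a, which activates phosphocholine (chr16:32430921-32475070), gave 15.7, 20.9 and 17.7 RPKM on HFD and 7.68, 20.8 and 11.3 on LYC. LYC2 lay within HFD and the other LYC libraries below, with an estimate of -0.25 (log2, 95% interval -1.0 to 0.50). The sign of Pcyt2 turned without the TMM factor (-0.19) and without LYC2 (-0.16).

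Of the phosphotransferases, Selenoi was called and Cept1 was not, and the difference between them was not tested. Selenoi, the ethanolamine phosphotransferase (chr5:30232581-30272427), gave 13.9, 21.5 and 14.7 RPKM on HFD and 1.14, 2.41 and 9.09 on LYC, the latter from 3, 5 and 25 reads. All LYC libraries lay below HFD, LYC1 and LYC2 far below and LYC3 nearer. The log2 fold change was -1.82 (standard error 0.53, 95% interval -3.02 to -0.62, adjusted p = 0.0570, limma). Of the 6 fits with a library left out, 1 called Selenoi, the fit without LYC3 (-2.50), and the estimate reached -1.38 without LYC1. With the trend on gene length removed it was -1.55 and missed the limit on p, as it did with a pseudocount of 0.1 (-2.15) and without the filter on low genes. With a pseudocount of 5 it was -1.16 and called. Cept1, which makes both PC and PE (chr3:106502260-106547802), gave 17.3, 20.0 and 13.6 RPKM on HFD and 12.6, 14.9 and 22.4 on LYC. Its groups overlapped, and the log2 fold change was 0.22 (95% interval -0.45 to 0.89), turning to -0.05 without the TMM factor and to -0.03 without LYC3.

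Selenoi is a selenoprotein, which means that a UGA codon in its message is read as selenocysteine and not as a stop. The recoded codon is shown because the footprints counted on Selenoi come from a message whose translation has to pass it. In RefSeq on GRCm38 the codon lies at chr5:30266964-30266966 in the last coding exon (chr5:30266901-30266999, plus strand), and the coding part of that exon is printed with the recoded TGA and the final stop TAA in capitals.
Selenoi last coding exon: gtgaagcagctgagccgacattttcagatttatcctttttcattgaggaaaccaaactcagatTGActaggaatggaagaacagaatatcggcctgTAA
The selenocysteine is residue 388 of 398, and 10 residues follow it. The values are sums over the whole gene, so reads before and after the codon were not separated.

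Pemt, which turns PE into PC by methylation and is known chiefly from hepatocytes (chr11:59970614-60046489), had the highest mean RPKM of the 10 genes in each group, although Etnk2 was higher in LYC1 and LYC2. HFD gave 142, 148 and 155 RPKM and LYC 56.1, 135 and 148. LYC2 and LYC3 lay at the level of HFD and LYC1 alone lay low. The log2 fold change was -0.22 (95% interval -0.96 to 0.52, adjusted p = 0.682, limma) and turned to 0.14 without LYC1.

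Both acyltransferases fell. Lpcat3, which places polyunsaturated fatty acids into lysophosphatidylcholine and is a known target of the liver X receptors (chr6:124663027-124704418), gave 34.7, 52.7 and 45.0 RPKM on HFD and 11.1, 11.6 and 26.2 on LYC, from 237, 581 and 94 against 11, 9 and 27 reads. No LYC library reached HFD. The log2 fold change was -1.19 (standard error 0.35, 95% interval -2.0 to -0.39, adjusted p = 0.0614, limma), and of the fits that left out a library only the fit without LYC3 called it (-1.60). It also narrowly missed the limit on p with a pseudocount of 0.1 (-1.24) and without the filter on low genes.
Mboat7 (chr7:3677789-3693523) gave 12.8, 17.6 and 11.3 RPKM on HFD and 1.08, 1.37 and 6.22 on LYC. These LYC values rest on 1, 1 and 6 reads against 82, 182 and 22 in HFD. The log2 fold change was -1.93 (standard error 0.48, 95% interval -3.03 to -0.83, adjusted p = 0.0353, limma). Of the 6 fits with a library left out, 2 called Mboat7, those without LYC3 (-2.54) and without HFD3 (-2.03). With a pseudocount of 5 the estimate was -1.16 and called. In Mboat7, Lpcat3, Selenoi and Chkb the groups did not overlap, as for 19.3% of all genes tested in the lower direction, and an exact permutation test of each gave p = 0.1, two-sided, the smallest that 3 against 3 allows.

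**Figure D2:**
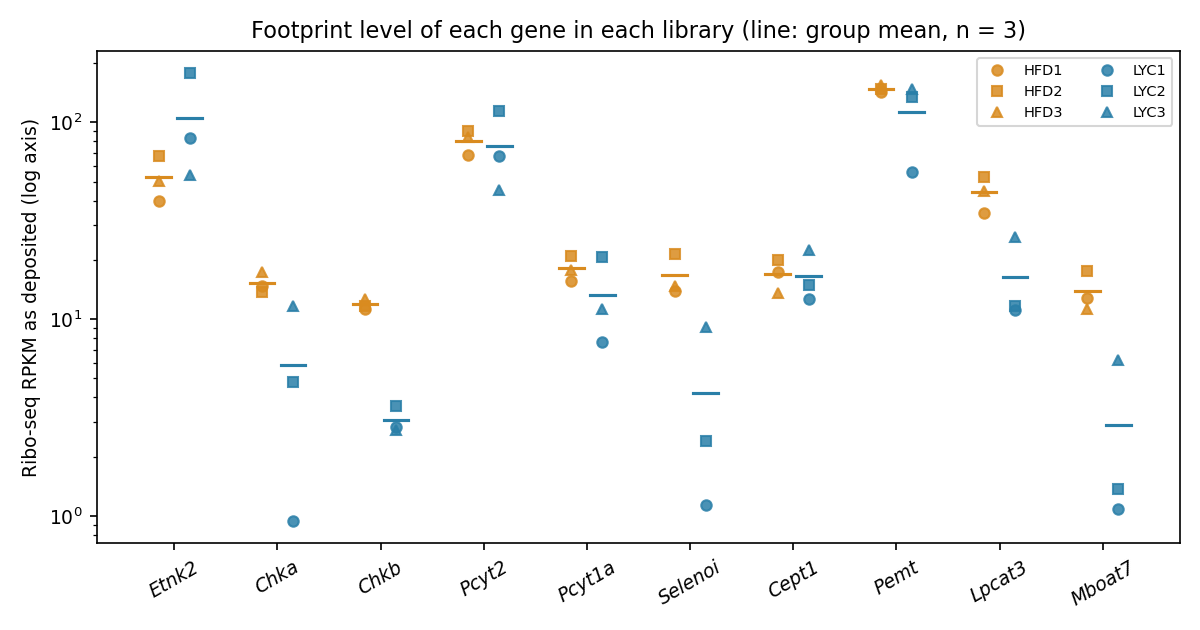
Ribo-seq RPKM as deposited (y axis, log scale) of the 10 genes in each library. Symbols mark libraries 1 to 3 of HFD (orange) and LYC (blue) and short lines the group means. LYC3 (blue triangle) lies nearer to HFD than LYC1 and LYC2 in Chka, Selenoi, Lpcat3 and Mboat7, whereas Chkb is low in all 3.

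Some exons of these genes lie under others on the opposite strand, and whether the counting used strand is not given in the sources used here. In GENCODE, Cept1 shares 771 of its 3116 exonic bases with Dennd2d, Lpcat3 334 of 3268 with Emg1, Mboat7 277 of 8339 with Tsen34, Chkb 320 with C730034F03Rik and Pcyt1a 567 of 7412 with Slc51a. Smaller overlaps of Cept1 with Dram2, and of Chka and Pcyt1a with antisense transcripts, covered at most 165 bases, and Pemt, Pcyt2, Etnk2 and Selenoi shared no exonic base with another gene. Reads from such bases cannot be told apart.

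The spread within LYC ran through the set. The SD of log2 scaled values was larger in LYC than in HFD in 9 of the 10 genes, all but Chkb, with a median of 0.64 against 0.18. LYC was likewise the more variable group in 83.7% of genes tested, with medians of 0.51 and 0.22. LYC3 was the LYC library closest to the HFD mean in 5 of the 10 genes and in 44.0% of all genes tested. In log2 units LYC1, LYC2 and LYC3 lay 2.71, 2.22 and 0.54 below the HFD mean in Selenoi, 2.51, 2.50 and 0.79 below it in Mboat7, and 1.43, 1.69 and 0.46 below it in Lpcat3. Chkb lay 1.37, 1.36 and 1.58 below, an order set by library size and scaling, since each LYC library held 2 reads of it. Its small SD in LYC has the same limit. Etnk2 lay 1.15, 1.90 and 0.33 above. The 4 genes called lower became 5 without LYC3, with Chka added, and Etnk2 was then called higher. Calls over all genes tested grew as well in that fit, to 10.9% lower and 8.52% higher. Without LYC1 or LYC2, 1 of the 4 was called, where 6.29% and 7.13% of all genes tested were called lower. Without HFD1 or HFD2 it was again 1, and without HFD3 it was 2, with 3.49%, 4.02% and 2.92% of all genes tested called lower.

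**Figure D3:**
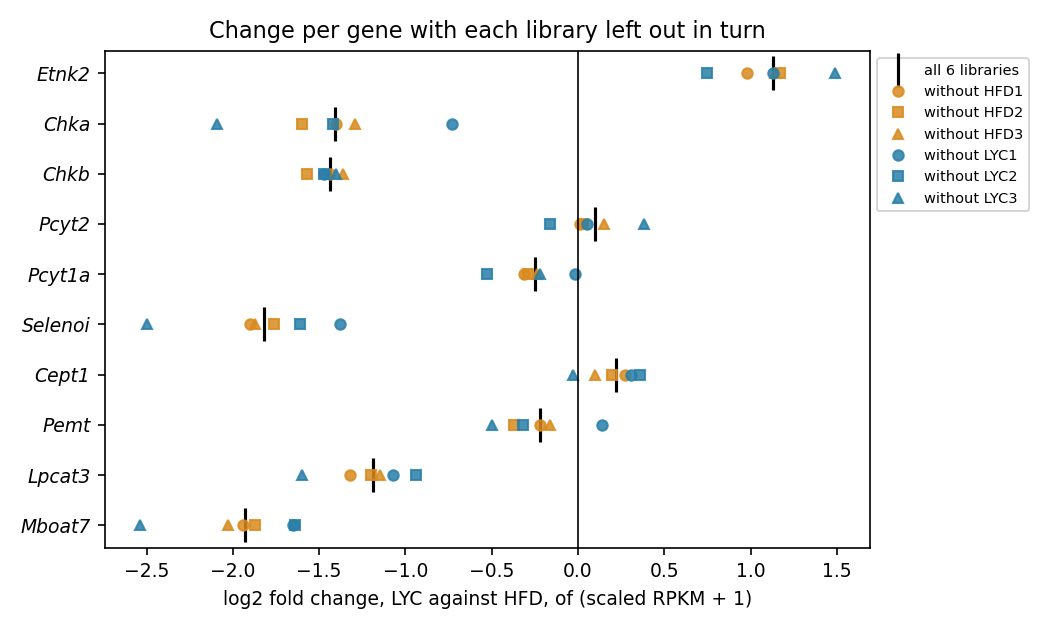
Log2 fold change of each gene (x axis) in the fit of all 6 libraries (black bar) and in the fits that leave out a single library (symbols). Leaving out LYC3 moves Selenoi, Mboat7, Chka and Lpcat3 farthest down (-2.50, -2.54, -2.09 and -1.60) and Etnk2 farthest up (1.49), whereas Chkb stays between -1.57 and -1.36.

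Shares of the summed RPKM of the 10 genes do not depend on the scaling between libraries, and they are given as a description. The sum itself, with its SD over 3 libraries, was 419 ± 46.6 RPKM on HFD and 356 ± 122 on LYC, or 378 ± 29.4 and 385 ± 90.7 on scaled values, so the difference was smaller than the spread within LYC. Etnk2 took 10.8%, 14.6% and 11.9% of it on HFD and 34.1%, 36.6% and 16.1% on LYC, with no overlap. Lpcat3 took 9.38% to 11.4% in HFD and 2.38% to 7.77% in LYC, Mboat7 2.67% to 3.81% and 0.283% to 1.84%, Chkb 2.52% to 3.05% and 0.740% to 1.16%, and Selenoi 3.49% to 4.65% and 0.467% to 2.70%. These 4 shares did not overlap either. For shares no rate over other genes was computed. On scaled RPKM, 19.3% of all genes tested lay apart in the lower direction and 18.7% in the higher. The shares of Pemt (35.6% ± 3.36 and 31.6% ± 10.9), Pcyt2 (19.3% ± 0.759 and 21.5% ± 7.22) and Cept1 (4.07% ± 0.756 and 4.96% ± 1.81) differed by less than the SD within LYC. Those of Chka (3.68% ± 0.637 and 1.62% ± 1.64) and Pcyt1a (4.31% ± 0.175 and 3.59% ± 0.604) differed by more than it, and Chka and Pcyt1a overlapped between the groups. Since the shares sum to the whole, a larger share of any gene makes those of the others smaller.

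**Figure D4:**
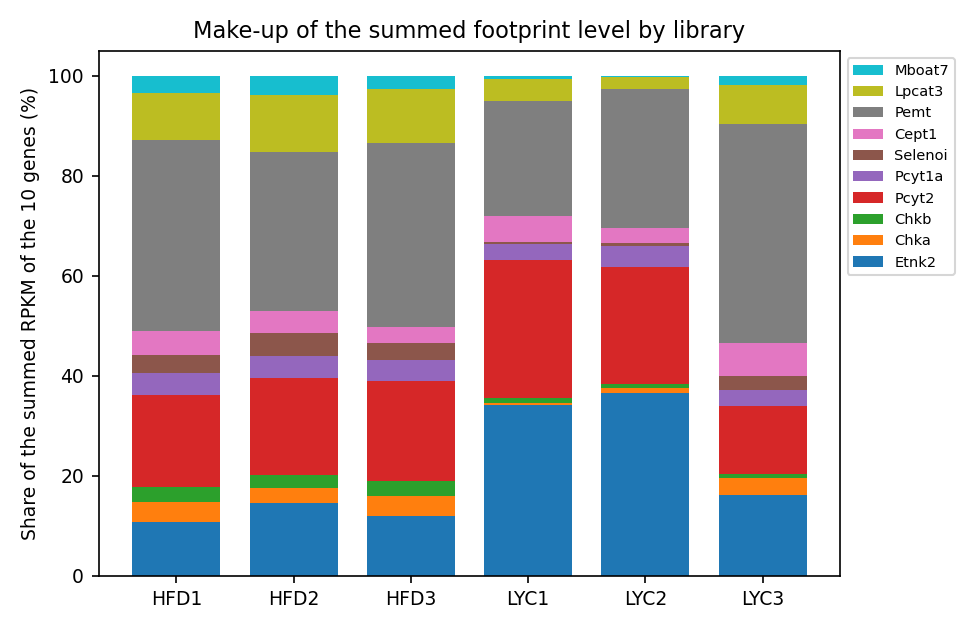
Share of the summed RPKM of the 10 genes taken by each gene (y axis, percent) in each Ribo-seq library. The Etnk2 part (bottom, blue) is 10.8% to 14.6% in HFD and 34.1%, 36.6% and 16.1% in LYC1, LYC2 and LYC3, while Pemt (grey) is the largest part in all libraries but LYC1 and LYC2.

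The order of levels within HFD, in RPKM, ran from Pemt (148 ± 6.78) over Pcyt2 (80.8 ± 11.3), Etnk2 (52.7 ± 14.0) and Lpcat3 (44.2 ± 9.01) to Pcyt1a (18.1 ± 2.63), Cept1 (17.0 ± 3.20), Selenoi (16.7 ± 4.2), Chka (15.3 ± 1.91), Mboat7 (13.9 ± 3.32) and Chkb (11.9 ± 0.751). Neighbours from Pcyt1a downward did not differ beyond their spread, nor did Etnk2 and Lpcat3. Pemt stood at the 92.2 percentile of the genes tested and Chkb at the 42.7 percentile. In LYC the order began with Pemt (113 ± 49.7), Etnk2 (105 ± 64.5) and Pcyt2 (75.4 ± 34.9), which overlapped. RPKM divides by the length of the transcript, although footprints lie mostly on its coding part, and 4951 bases stand behind Pcyt1a and 6672 behind Selenoi for coding lengths of 1104 and 1197. Scaled by coding length in place of transcript length, Selenoi moved from place 7 to place 4 in HFD (93.1 ± 23.4) and Pcyt1a stood at 81.1 ± 11.8, next to Lpcat3 at 75.5 ± 15.4. On that scale Etnk2 led in LYC (207 ± 127), ahead of Pemt (170 ± 74.8). The scale takes every read as lying in the coding part, which was not tested and rests on the footprint label.

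The other genes of PC and PE metabolism were followed in 6 lists with 45 genes, of which 25 had enough reads to be tested. Of these 17 had a negative and 8 a positive estimate, and their median was -0.30 (log2) where all genes tested had -0.10. By limma 1 was called higher and 0 lower, with 6 negative and 2 positive estimates at an unadjusted p below 0.05 (15.3% and 14.9% of all genes tested) and 1 gene called lower by edgeR's quasi-likelihood test and by DESeq2 each, which called 7.22% and 6.94% of all genes tested lower. Without the TMM factor 4 were called lower, Etnk1, Ptdss1 and Atp8b1 among them, where 11.6% of all genes tested were called lower and the median of all genes tested moved to -0.36.
The gene called was Gpcpd1, which encodes a phosphodiesterase that splits glycerophosphocholine, a breakdown product of PC. HFD gave 6.99, 9.02 and 9.01 RPKM and LYC 25.9, 38.0 and 36.5. The libraries of each group lay close together and far from the other group. Its log2 fold change was 2.14 (standard error 0.27, adjusted p = 0.00208, limma). Each of the 6 fits that left out a library called Gpcpd1 higher.

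By list, 4 of 9 genes of choline uptake and oxidation were tested and 3 had lower values. Chdh and Aldh7a1, which oxidize choline to betaine and its aldehyde onward, had log2 fold changes of -0.19 and 0.33. Of the other Kennedy pathway enzymes, Etnk1, the other ethanolamine kinase, had the opposite sign to Etnk2, at 23.0 ± 3.06 and 9.94 ± 2.24 RPKM (-0.87, adjusted p = 0.0641, limma). Chpt1, the choline phosphotransferase, was at 116 ± 25.6 and 98 ± 19.2 RPKM (0.05, 95% interval -0.48 to 0.58), and Etnppl, which breaks down phosphoethanolamine, had 0.08. Chpt1 thus stood higher in RPKM than Cept1 in both groups. In the phosphatidylserine route, Ptdss1, which makes phosphatidylserine from PC, had 15.0 ± 3.94 and 5.93 ± 1.92 RPKM (-0.95, adjusted p = 0.112, limma), Pisd, which turns it into PE, had -0.32, and Ptdss2, with 81 reads in HFD and 2 in LYC, was not tested.
Among the remodelling genes Lpgat1 had -0.63, Lclat1 -0.80 and Lypla1 -0.21, all with an adjusted p above that of Lpcat3. The relatives Lpcat1, Lpcat2, Lpcat4, Mboat1 and Mboat2 were too low to test, with at most 1 read in LYC. In the breakdown list Pnpla7 had -0.65 and Pnpla8 0.62, and 6 of 10 genes were not tested. Of the 7 genes of transfer and biliary export, all tested, Abcb4, which exports PC into bile, was at 91.1 ± 18.1 and 53.5 ± 6.41 RPKM (-0.46, 95% interval -0.98 to 0.05) and Stard10 had 0.50.

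**Figure D5:**
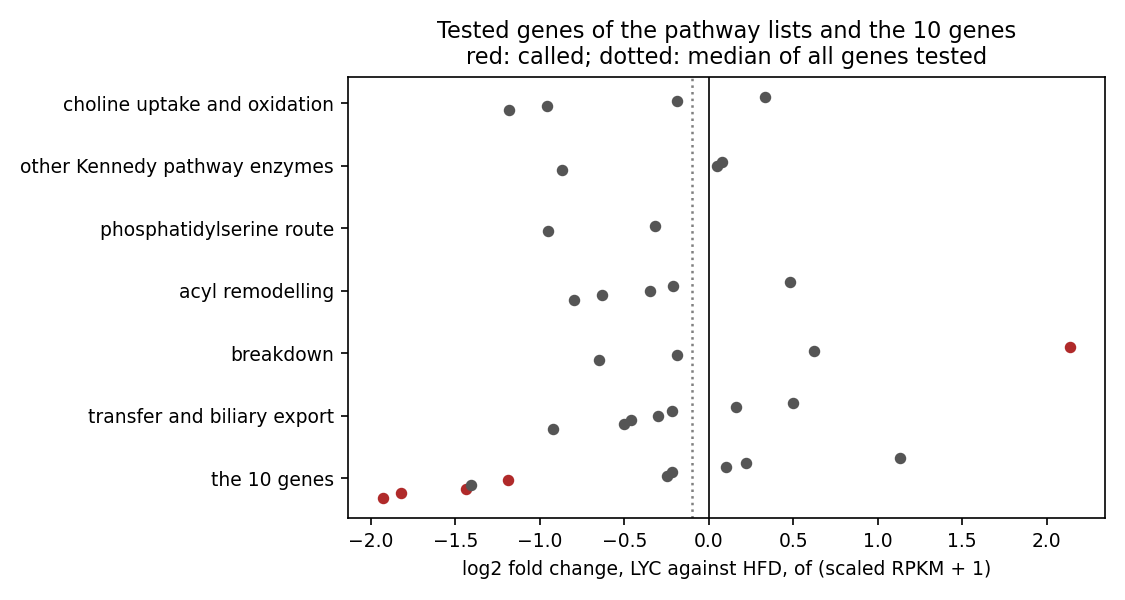
Log2 fold change, LYC against HFD, on the scale of scaled RPKM + 1 (x axis), of the tested genes of each list and of the 10 genes (rows). Each point is a gene, points are offset for display, and genes called are red. Gpcpd1 at 2.14 is the 1 red point outside the bottom row, and the dotted line marks the median of all genes tested (-0.10).

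The study also has 6 libraries labelled RNA-seq, whose table gives counts and RPKM. Over 24586 genes, the RPKM of each of these columns correlated best with a single Ribo-seq library (Pearson's r of 0.928 to 0.958 on log2(RPKM + 1), with the next library at 0.856 to 0.939), and genes are not independent replicates. For the 10 genes, 29 of the 30 LYC counts of this table equalled the recovered Ribo-seq reads of that library, and the remaining count differed by 1. In HFD 1 of 30 was equal, the largest difference was 22 reads, and the differences summed to 3.21% of the reads. Chkb differed most for its depth, with 80, 11 and 46 counts against 92, 19 and 55 recovered reads in HFD2, HFD3 and HFD1, and it also held the LYC count that differed. The closest library of the columns numbered 1, 2 and 3 was HFD2, HFD3 and HFD1 in HFD. The totals over all genes matched less closely. The LYC columns 1 to 3 summed to 673832, 582184 and 687242 counts, where the recovered reads of their closest libraries summed to 342076, 271971 and 357228 over the listed genes. The HFD columns 1 to 3 summed to 4730705, 805557 and 2976534 counts, against 3962358, 652509 and 2239148 recovered reads in HFD2, HFD3 and HFD1. From which assay the reads of the 10 genes come cannot be told from these values. They are therefore called footprint levels here by their label alone. Since the counts of the 10 genes follow their Ribo-seq reads, these counts were not used as a second measurement. Translational efficiency of the 10 genes was not tested.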

How the data were processed

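Ribo-seq was analysed in 3 HFD and 3 LYC livers. Per the file headers the authors deposited RPKM values for these libraries, and a further table of read counts and RPKM under RNA-seq labels. For cleaning, the authors used cutadapt and bowtie2. STAR placed the reads on GRCm38/mm10, and FANSE2 gave gene values. Versions, annotation and filters are not given in the sources used here.

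Reads were recovered from the RPKM steps with a tolerance of 0.02 reads. The gene length came from the second table for 11129 genes, from RefSeq transcripts for 3825 and from a scan of lengths for 795. Lengths of the second table gave whole reads in 71.9% to 72.4% of values above 0. In the Ribo-seq file 26 names had turned into dates, and 4 entries sharing a name were left out.

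The design followed the paper's limits (its results give 0.01, its methods 0.001). The paper used edgeR, but the deposited unit is RPKM, so limma with a mean-variance trend was the test, on genes kept by filterByExpr, and edgeR and DESeq2 on recovered reads were alternatives. RPKM was divided by TMM factors. Fits were tested on simulated data. The genes and lists were chosen with earlier results of these data known. Named genes are the 10 genes, called genes of the 6 lists, the 3 genes of each list with the most reads, the top markers of a type, and some chosen after their values were seen (Cps1, Tat, Alas2, Ptdss2, Atp8b1, marker genes at 0 and untested relatives). Some genes that this rule names are not reported here. Intervals are 95%. Statistics ran in R 4.3.3 (DESeq2 1.42.0, edgeR 4.0.16, limma 3.58.1). Tables and plots were made with pandas 2.3.3, matplotlib 3.10.9 and numpy 2.4.6 under Python 3.11.15.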

Additional observations from a re-analysis of the deposited data

How the results depend on the processing

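The number of the 10 genes called lower was 4. It was 2 with a pseudocount of 0.1 (5.15% of all genes tested) and 2 without a filter on low genes (4.56% of 15749 genes). In both settings Lpcat3 and Selenoi lost the call. It was also 2 with an adjusted p below 0.05 and no fold limit (5.30% of all genes tested), and 0 with an unadjusted p below 0.001. With a pseudocount of 5, Chkb lost its call (-0.92), and 3.93% of all genes tested were called lower. Dropping any single library gave 1 to 5. The number called higher was 0, and 0 to 1 when any single library was dropped. It was 1 (Etnk2) with edgeR's quasi-likelihood test, with DESeq2 and with the replicate block. These called 8.64%, 9.04% and 6.99% of all genes tested higher. The signs that turned belong to genes that were not called in any setting. Pemt turned to 0.14 without LYC1, Pcyt2 to -0.19 without the TMM factor and to -0.16 without LYC2, and Cept1 to -0.05 without the TMM factor and to -0.03 without LYC3. With single libraries left out, Pemt ran from -0.50 to 0.14, Pcyt2 from -0.16 to 0.38 and Cept1 from -0.03 to 0.36. Chka, Chkb, Lpcat3, Mboat7, Selenoi, Pcyt1a and Etnk2 kept their sign in all settings run. No label ties same-numbered libraries of the groups to each other, and deviations of same-numbered libraries from their group means correlated at 0.10, 0.03 and -0.00, so the block shares only a number. It changed 1 call among the 10 genes, that of Etnk2 (limma adjusted p = 0.0632), and moved the calls over all genes from 397 higher and 371 lower to 398 and 357. Without the TMM factor 235 genes were called higher and 658 lower, with a median log2 fold change of -0.36. The counts were 434 and 718 of 15749 genes without a filter, and 485 and 621 of 5694 without LYC3. With 6 to 18 reads over the 3 LYC libraries, the size of the estimates of Chkb, Mboat7 and Chka is limited by counting, and the cause of the changes in calls was not tested.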
